A study of Mus musculus with 9 samples.

Results

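Retinal ganglion cells (RGCs) from eyes with Mild IOP elevation were compared with RGCs from Control eyes, using the 3 libraries titled Mild IOP and the 3 titled Control among the 9 RNA sequencing libraries of the series. RGCs are the projection neurons of the retina, and their axons form the optic nerve. They are the cells lost in glaucoma, a disease for which raised intraocular pressure (IOP) is the main risk factor that can be treated. Blocking the outflow of fluid from the front of the eye with injected beads is a common way to raise IOP in mice, and a small rise can be studied before many RGCs are lost.

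All mice were C57BL/6J. The sample labels give an age of 8 weeks and the text of the series gives 6 weeks. The study's methods place the injection at 6 weeks of age, and the treatment lasted 2 weeks. Control eyes received saline in the anterior chamber and the Mild IOP eyes received microbeads. According to the study's methods, microbead eyes were placed in the Mild IOP or the Moderate IOP group by their measured average rise in IOP, and mice of both sexes were used. RGCs were taken from dissociated retinas by immunopanning, in which cells bound by plates against microglia, macrophages, endothelial cells, fibroblasts and amacrine cells were discarded before a last plate coated with an antibody against Thy1. Actinomycin D, which blocks new transcription, was present during the isolation. Within a group, RNA was combined into 1 pool that was then split into 3 technical replicates, so standard errors and p-values cover the spread between technical replicates and not between animals.

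Expression was deposited as FPKM, in which fragments are scaled to transcript length and to library size, under 23997 gene symbols, of which between 14182 and 14914 per library were above 0. Read totals were not used here, and the depth derived from the deposited confidence intervals was 6560000, 8230000 and 4660000 fragments in the Control replicates and 6290000, 6130000 and 4930000 in the Mild IOP replicates. Library scaling factors lay between 0.983 and 1.058. In Mild IOP replicate 2 the microRNA gene Mir1249 was listed at 120874 FPKM, 20.5% of all FPKM, from 1 derived fragment. Values below are scaled FPKM, given in the order of replicates 1, 2 and 3. Log2 fold-changes are Mild IOP minus Control on the log2(scaled FPKM + 1) scale with their SE, which understates the change of low genes, fitted with limma over 13043 genes with a mean of at least 0.5. FDR is the p-value adjusted by the Benjamini-Hochberg method over all of these genes, and a differentially expressed gene (DEG) has an FDR below 0.1.

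The RGC identity of both groups was examined first. All 28 genes of an RGC marker list were tested, and their summed level was 3919 to 4080.3 scaled FPKM in the Control replicates and 2997 to 3708 in the Mild IOP replicates. Sncg, which encodes the synuclein enriched in RGCs, stood at 855, 931 and 948 in Control and 700.1, 507 and 716 in Mild IOP. Nefl, the light neurofilament subunit of large axons, stood at 353, 338 and 337 in Control and 372, 365 and 385 in Mild IOP. Rbpms and Pou4f1, which are used to count RGCs, were present in every library, with Rbpms at 84.9, 109.6 and 68.8 in Control and 97.7, 66.5 and 66 in Mild IOP. Pou4f1 stood at 17.2, 17.9 and 19.2 in Control and 18.3, 12.8 and 15.7 in Mild IOP. Markers of other cells were present as well, including amacrine cells, which a panning plate was meant to remove. Their markers summed to 1895 to 1990.4 in Control and 1952 to 2167 in Mild IOP, and rod and cone markers to 1154 to 1246 and 782 to 880.5. Muller glia and astrocyte markers summed to 1887 to 2160.5 in Control and 1803 to 1993 in Mild IOP. Bipolar cell markers summed to 149.6 to 225.9 and 140.4 to 218.4. Microglia and macrophage markers summed to 83.1 to 93 and 90.3 to 105, and endothelial and pericyte markers to 2.58 to 9.0 and 8.66 to 13.4. Pigment epithelium markers summed to 3.02 to 9.82 in Control and 4.19 to 5.68 in Mild IOP. Cldn5, a defining marker of endothelial cells, and Rpe65, one of the pigment epithelium, were listed at 0 in all 9 libraries. In all, 2 of 14 endothelial and pericyte markers and 1 of 11 pigment epithelium markers were at 0 throughout.

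More genes were lower than higher in Mild IOP at this threshold. Of the 13043 genes tested, 51 were lower in Mild IOP, which is 0.391% of the genes, and 1 was higher, which is 0.00767%. A fold-change of at least 1.5 was reached by 50 of the lower genes and by the higher gene. In all 51 lower genes every Mild IOP replicate lay below every Control replicate, as in 1191 genes of the whole table (9.13%), while 1036 genes (7.94%) had every Mild IOP replicate above every Control replicate. At an unadjusted p below 0.05, 913 genes were lower (7%) and 411 were higher (3.15%). The median log2 fold-change of all genes tested was 0.01, with quartiles at −0.21 and 0.20.

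The number of lower DEGs depended on single libraries. It was 18, 19 and 18 without Control replicate 1, 2 or 3, and 18, 15 and 173 without Mild IOP replicate 1, 2 or 3. Without Moderate IOP replicate 1, 2 or 3, which enter the estimate of the spread and the filter on low values, it was 38, 19 and 47. The higher DEGs numbered between 0 and 4 over the same settings. Whichever library was left out, 12 genes were called, namely Crygs, Cryaa, Cryba1, Crybb2, Cryba2, Crygb, Crygc, Crybb1, Cryab, Crybb3, Lim2 and Egr1. These are 10 crystallins, the lens membrane protein Lim2 and the transcription factor Egr1.

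Among the gene lists examined, the crystallins had the lowest median and the largest share of members past the FDR. Crystallins are the abundant structural proteins of the lens. The αA and αB members are small heat shock proteins, the β and γ members share a Greek key fold, and several of them are also made at low level in the retina. Of 16 crystallin genes listed, 12 were tested and 11 were lower in Mild IOP at an FDR below 0.1, against 0.391% of all genes. The summed level of the list was 393 to 515 scaled FPKM in Control and 13.5 to 14.7 in Mild IOP. Leaving out any of the 9 libraries left 10 or 11 of them lower.

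Of 10 lower crystallins with a promoter row, 3 hold the letters TATAAA, and the sequences before their start sites are shown for that reason. They are the 250 bases upstream of the RefSeq start site (GRCm38.p6) of Crygs (chr16:22811411-22811660, minus strand), Cryba1 (chr11:77725294-77725543, minus strand) and Crybb1 (chr5:112255570-112255819, plus strand), written in the direction of the gene, with the TATA box letters TATAAA in capitals.
Crygs: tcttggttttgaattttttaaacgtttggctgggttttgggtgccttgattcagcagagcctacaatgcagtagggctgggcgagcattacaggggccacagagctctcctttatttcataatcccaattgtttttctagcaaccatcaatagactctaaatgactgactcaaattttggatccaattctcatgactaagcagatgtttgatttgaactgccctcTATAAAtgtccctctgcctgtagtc
Cryba1: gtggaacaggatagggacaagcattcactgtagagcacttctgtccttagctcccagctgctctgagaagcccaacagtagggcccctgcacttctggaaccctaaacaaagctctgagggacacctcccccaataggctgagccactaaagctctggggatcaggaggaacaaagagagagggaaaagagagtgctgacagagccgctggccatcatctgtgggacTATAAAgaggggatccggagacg
Crybb1: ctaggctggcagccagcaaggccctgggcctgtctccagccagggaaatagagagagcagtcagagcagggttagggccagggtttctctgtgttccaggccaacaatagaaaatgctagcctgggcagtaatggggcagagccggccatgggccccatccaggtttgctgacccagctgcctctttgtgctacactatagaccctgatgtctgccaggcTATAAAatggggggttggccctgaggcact
The letters TATAAA start 25, 23 and 30 bases before the start sites of Crygs, Cryba1 and Crybb1. Searched on both strands of the same window, TATAAA was present in 3 of the 10 lower crystallins with a promoter row and in 14.3% of 27025 genes. The letters TGCTGAC, the core of the recognition element of the lens factor Maf, were present in 4 of 10 (Cryaa, Cryba1, Cryba4 and Crybb1) and in 4.31% of all genes. A match is a description of these letters and not of a bound site.

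Cryaa (chr17:31677931-31681730, mm10), which encodes αA-crystallin, stood at 130.0, 113 and 92.8 scaled FPKM in Control and 1.20, 0.457 and 0.394 in Mild IOP, a log2 fold-change of −6.08 ± 0.24 (FDR = 2.67e-07). The Control values rested on 681, 742 and 375 derived fragments and the Mild IOP values on 5.96, 1.57 and 0.888. The groups were far apart, and every Mild IOP replicate was close to 0. Crygs (chr16:22805203-22811410), the γS-crystallin of the lens cortex, was 71.3, 76.6 and 72.4 in Control and was listed at 0 in all Mild IOP replicates (FDR = 6.69e-08). Cryba1 (chr11:77718732-77725293), which encodes βA3/A1-crystallin, was 50.6, 89.6 and 47.2 in Control and was also listed at 0 in all Mild IOP replicates (FDR = 7.85e-07). No fold-change is given for genes listed at 0 throughout a group, since counts were not used here. Whether fewer cells made these transcripts or each cell made less cannot be told apart in pooled RNA. With 1 pool per group, a difference in the tissue that entered the pools cannot be told apart from these either, and was not tested.

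Crybb2, a major β-crystallin, stood at 59.2, 63.4 and 74.2 in Control and 0.870, 1.74 and 0 in Mild IOP (log2 fold-change −5.26 ± 0.55, FDR = 0.00244). Cryba2, another β-crystallin, stood at 31.7, 25.1 and 16.3 in Control and 0.293, 0 and 0 in Mild IOP (−4.49 ± 0.28, FDR = 1.91e-05). Crybb1 stood at 9.89, 11.8 and 15.8 in Control and 1.08, 0.871 and 2.0 in Mild IOP (−2.55 ± 0.27, FDR = 0.00268). In each of these 3 genes the groups did not overlap. Crybb3 and Cryab, the αB-crystallin gene, kept more of their level. Crybb3 was 16.3, 28.5 and 25.4 in Control and 5.61, 6.36 and 4.30 in Mild IOP, 3.73-fold lower (FDR = 0.00802). Cryab (chr9:50751325-50756635) was 31.5, 25.6 and 21.7 in Control and 3.88, 3.72 and 5.33 in Mild IOP, 5.12-fold lower (FDR = 0.0126). Cryba4 was 12.1, 17.2 and 6.69 in Control and 0.545, 0 and 2.18 in Mild IOP (FDR = 0.0358) and was not called without Control replicate 1 or 2 or Mild IOP replicate 1 or 2.

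The γ-crystallins of the Cryga to Crygf cluster are close copies of each other, so the division of reads between them is uncertain. Crygb stood at 6.79, 40.7 and 10.3 in Control, with replicate 2 far above the others, and was listed at 0 in every Mild IOP replicate (FDR = 0.00996). Crygc stood at 15.9, 23.2 and 7.95 in Control and 0, 0.369 and 0 in Mild IOP (FDR = 0.000866). Cryga was listed at 0 in all 3 Control replicates and stood at 0, 0 and 0.516 in Mild IOP (FDR = 0.95). Among 16 further lens genes 7 were tested, and only Lim2, a membrane protein of lens fibre cells, passed the test. Lim2 was 4.59, 2.69 and 3.01 in Control, from 22, 16 and 9.59 derived fragments, and was listed at 0 in every Mild IOP replicate (FDR = 0.0108). Prox1 and Maf, transcription factors shared by lens and retina, had log2 fold-changes of 0.30 ± 0.16 and −0.40 ± 0.28, and neither passed.

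**Figure D1:**
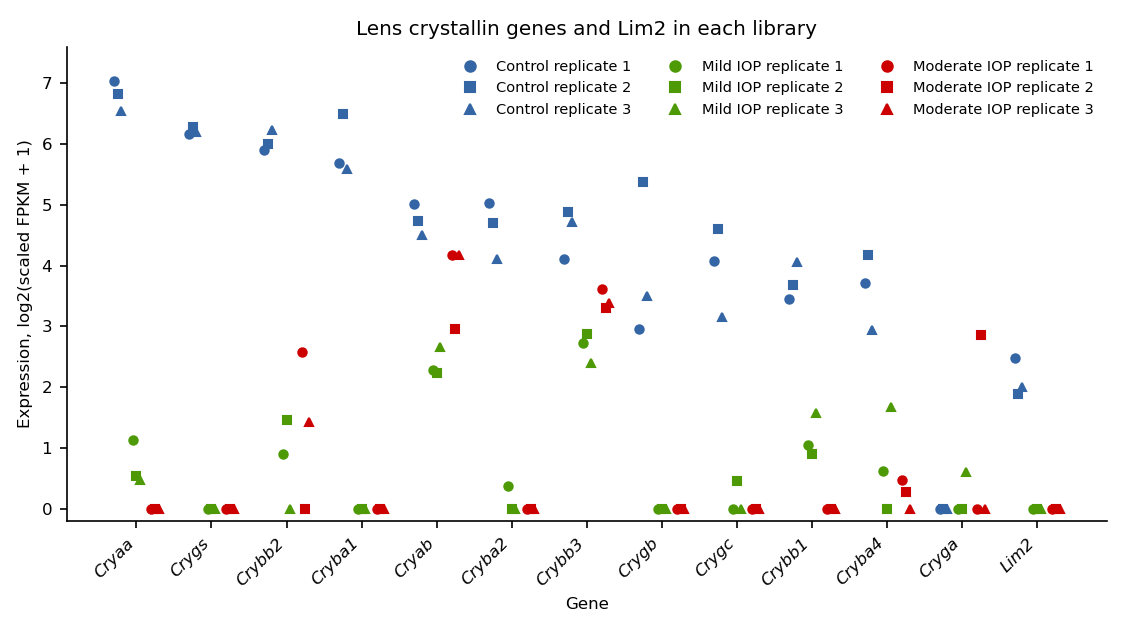
Expression of the 12 tested crystallin genes and Lim2 as log2(scaled FPKM + 1) on the vertical axis, with a point for each of the 9 libraries and genes ordered by Control mean. For 11 crystallins and Lim2 all Mild IOP points lie below all Control points, and Crygs, Cryba1, Crygb and Lim2 lie at 0 in every Mild IOP replicate.

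Nuclear genes for the respiratory chain and ATP synthase formed the next group. The 5 protein complexes of the inner mitochondrial membrane pass electrons to oxygen and use the proton gradient to make ATP, on which the long unmyelinated axons of RGCs in the retina depend. Of 87 tested genes of these complexes, 7 were lower at an FDR below 0.1 and none was higher. At an unadjusted p below 0.05, 56 were lower and 3 were higher, against 7% and 3.15% of all genes. The median log2 fold-change was −0.54 for 38 genes of complex I, −0.56 for 30 genes of complexes II to IV and −0.45 for 19 genes of ATP synthase, beside 0.01 for all genes tested.

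Atp5k (chr5:108433253-108434378), which encodes the e subunit of ATP synthase, was 1163, 995 and 1021 scaled FPKM in Control and 389.7, 365 and 675 in Mild IOP, a log2 fold-change of −1.21 ± 0.21 (FDR = 0.0616). Mild IOP replicate 3 was the nearest to Control, and the groups did not overlap. Atp5j, the coupling factor F6 of the same enzyme, was 638, 634 and 747 in Control and 429.7, 291 and 449.8 in Mild IOP (−0.81 ± 0.16, FDR = 0.0884). Of complex I, the accessory subunit Ndufa2 was 487, 438 and 499 in Control and 226, 191 and 298 in Mild IOP, 2.02-fold lower (FDR = 0.0273). Ndufa5 was 1.70-fold lower (FDR = 0.0544) and Ndufa13, also known as Grim19, was 1.69-fold lower (FDR = 0.0954). Of complex IV, Cox8a was 1459.5, 1532 and 1549 in Control and 900.1, 662 and 1069 in Mild IOP (−0.81 ± 0.16, FDR = 0.087), and Cox7b was 1.56-fold lower (FDR = 0.0743). In all 7 genes the lowest value was that of Mild IOP replicate 2. Many abundant members did not pass. Ndufa4, now placed in complex IV, was 1312, 1476 and 1524 in Control and 1185, 859 and 1214 in Mild IOP (−0.42 ± 0.14, FDR = 0.301), and Uqcrh of complex III was 608, 797 and 639.9 in Control and 394, 233 and 421 in Mild IOP (FDR = 0.106).

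The size of this difference varied between Mild IOP replicates. Median log2 differences from the Control mean in replicates 1, 2 and 3 were −0.50, −0.80 and −0.29 for complex I, −0.46, −0.80 and −0.28 for complexes II to IV and −0.30, −0.86 and −0.22 for ATP synthase. Replicate 2 was the lowest in each group of genes and replicate 3 the nearest to Control. Of the 87 genes, 0, 1 and 1 were lower at an FDR below 0.1 without Control replicate 1, 2 or 3, and 0, 1 and 35 without Mild IOP replicate 1, 2 or 3. Without Moderate IOP replicate 1, 2 or 3 the number was 3, 1 and 3. The median over the 87 genes was −0.37 without Mild IOP replicate 2 and −0.66 without Mild IOP replicate 3.

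Genes for cytosolic ribosomal proteins, the protein part of the machine that reads mRNA, moved in the same direction. Of 83 tested, 8 were lower at an FDR below 0.1, against 0.391% of all genes, and 65 were lower and none higher at an unadjusted p below 0.05, against 7% and 3.15%. The median log2 fold-change was −0.63, with medians of −0.52, −0.92 and −0.35 in Mild IOP replicates 1, 2 and 3. Of the large subunit, Rpl36 (chr17:56613395-56614246) was 427, 351 and 394 in Control and 216, 138 and 213 in Mild IOP (−1.07 ± 0.17, FDR = 0.0446), and Rpl32 was 293, 353 and 232 in Control and 151, 134 and 163 in Mild IOP (−0.95 ± 0.15, FDR = 0.0446). Control and Mild IOP did not overlap in either gene. The others of the large subunit were Rpl37a, Rplp2, Rpl17 and Rpl9, which were 1.96, 1.72, 1.71 and 1.62-fold lower. Of the small subunit, Rps25 was 1.80-fold lower (FDR = 0.0489) and Rps7 was 1.74-fold lower (FDR = 0.0861). Rpl41, the most abundant member, was 819, 951 and 765 in Control and 544, 371 and 649 in Mild IOP (−0.73 ± 0.19, FDR = 0.198) and did not pass. Ribosomal protein genes have many processed copies in the genome, and reads could have been divided among them. The number lower at an FDR below 0.1 was 0, 1 and 1 without Control replicate 1, 2 or 3, 2, 2 and 32 without Mild IOP replicate 1, 2 or 3, and 5, 2 and 6 without Moderate IOP replicate 1, 2 or 3.

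**Figure D2:**
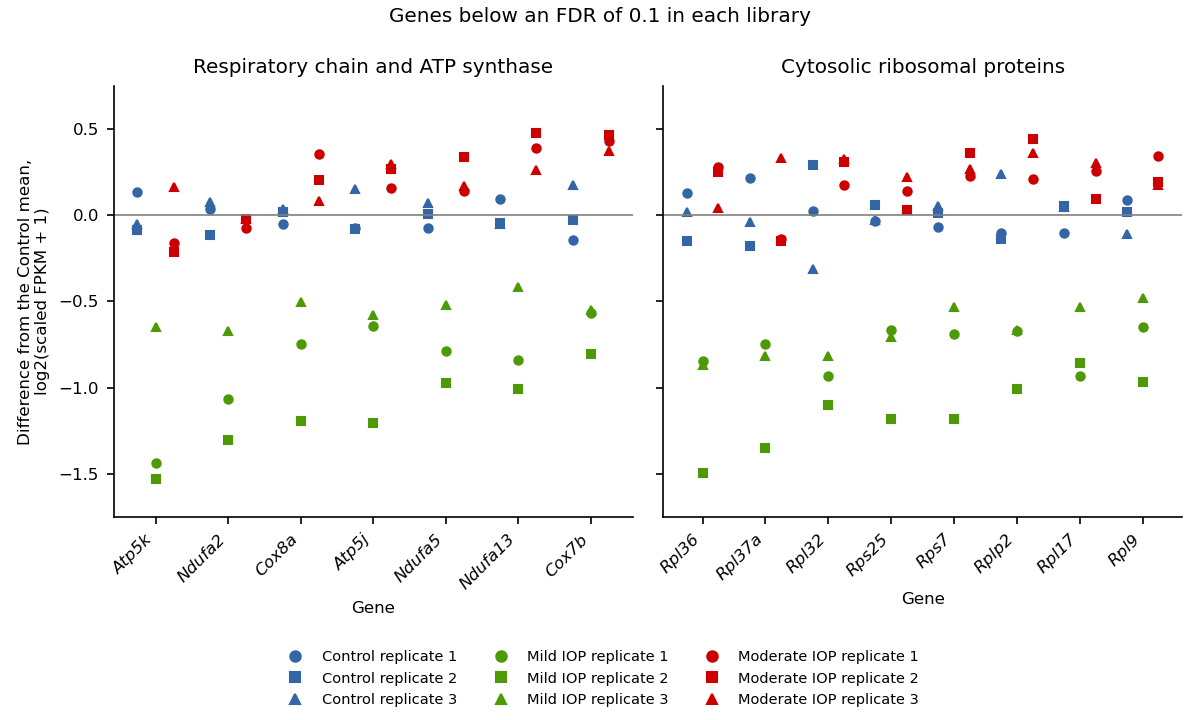
Difference of each library from the Control mean, in log2(scaled FPKM + 1), for the 7 respiratory chain and ATP synthase genes and the 8 cytosolic ribosomal protein genes with an FDR below 0.1. All Mild IOP points lie below 0 and below the Control points, and the Moderate IOP points lie near or above 0.

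Members of other mitochondrial and protein turnover lists did not pass the FDR. Mitochondrial ribosomal proteins, which translate the proteins encoded by mitochondrial DNA, had 0 of 76 genes past the FDR and 36 lower and 1 higher at an unadjusted p below 0.05, against 7% and 3.15% of all genes, with a median of −0.44. Their summed level was 5437 to 6045 in Control and 3236 to 4717 in Mild IOP. Without Mild IOP replicate 3, 7 of them passed the FDR, and 1 passed without Moderate IOP replicate 1 or 3. Proteasome subunits, which form the main protein-degrading machine, had 0 of 37 past the FDR and 11 lower at an unadjusted p below 0.05, with a median of −0.26. Translation initiation and elongation factors had 10 lower and 3 higher of 61 and a median of −0.09.

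The difference between Mild IOP and Control varied with transcript length. When the 12924 tested genes with a known transcript length were divided into 10 groups of about equal size by length, the median log2 fold-change was −0.39 in the shortest group, with transcripts up to 1192 nt, and 0.11 in the longest group, with transcripts of at least 6626 nt. In the shortest group the medians of Mild IOP replicates 1, 2 and 3 were −0.33, −0.64 and −0.19 from the Control mean, and those of the Moderate IOP replicates were 0.26, 0.21 and 0.16. The shortest group held 38 of the lower DEGs. The median transcript length was 884 nt among the 51 lower DEGs and 3060.5 nt among all genes tested, and 38 of the 51 were under 1200 nt, against 10.2% of all genes tested. Median transcript length was 952.5 nt for complex I, 735.5 nt for complexes II to IV, 838 nt for ATP synthase and 906 nt for cytosolic ribosomal proteins.

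When the trend with length was subtracted in each library, 18 of the 51 lower DEGs passed the FDR, namely 11 crystallins and 7 others. Of the 87 respiratory chain and ATP synthase genes 0 passed, with a median of −0.16, and 30 were lower and 4 higher at an unadjusted p below 0.05. Of the 83 cytosolic ribosomal proteins 2 passed, with a median of −0.28, and 30 were lower at an unadjusted p below 0.05. Of all 12924 genes in that fit, 18 were lower at an FDR below 0.1. At an unadjusted p below 0.05, 525 of the 12924 were lower and 453 were higher. Mitochondrial ribosomal proteins had a median of −0.18 and proteasome subunits one of −0.10. The part of transcript length in these differences was not tested, and membership of these gene groups and short length cannot be told apart.

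**Figure D3:**
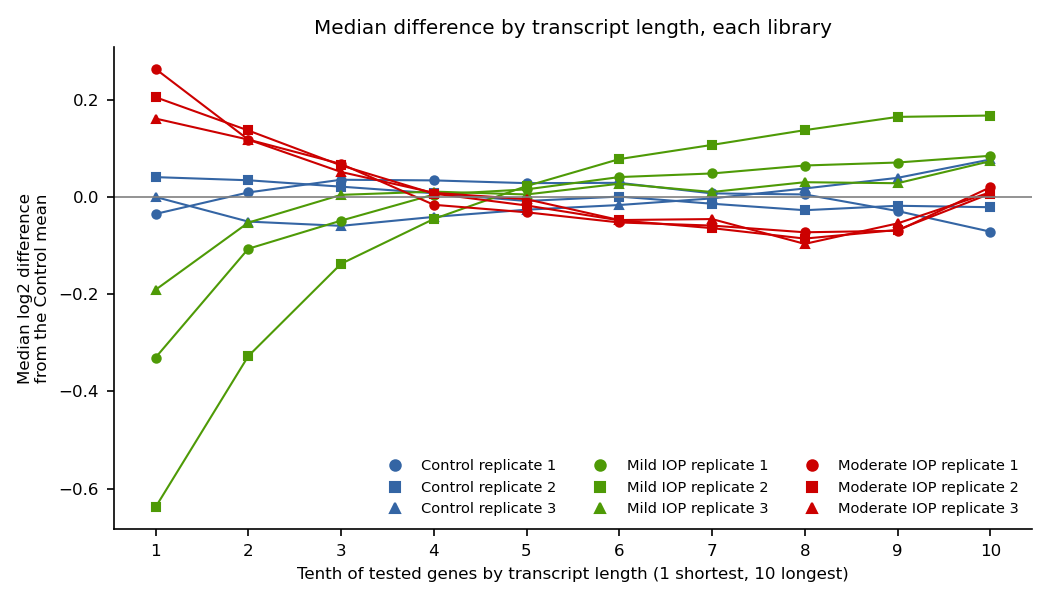
Median difference from the Control mean, in log2(scaled FPKM + 1), for 10 groups of tested genes ordered by transcript length, with a line for each of the 9 libraries. In the shortest group the Mild IOP replicates lie at −0.33, −0.64 and −0.19 and the Moderate IOP replicates between 0.16 and 0.26, while the Control replicates stay close to 0.

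Rod and cone markers tended lower in Mild IOP, and their median moved little when the length trend was subtracted. Rods and cones are the light-sensing cells of the retina, and their abundant transcripts can reach preparations of other retinal cells. Of 27 tested rod and cone markers, 2 were lower at an FDR below 0.1 and 13 were lower at an unadjusted p below 0.05, with none higher, against 0.391%, 7% and 3.15% of all genes. The median log2 fold-change was −0.48 and the medians of the replicates were −0.42, −0.62 and −0.42. After the length trend was subtracted the median was −0.42 and 2 members passed, against 18 lower genes among all 12924 of that fit. Sag (chr1:87803680-87845157), the rod arrestin that ends the light response, was 177, 164 and 148 in Control and 90.8, 83.4 and 111 in Mild IOP (−0.78 ± 0.14, FDR = 0.0632). The groups did not overlap. Guca1a, an activator of the photoreceptor guanylate cyclase, was 51.7, 41.9 and 35.4 in Control and 18.1, 23.3 and 16.8 in Mild IOP (FDR = 0.158), and Gngt1, the γ subunit of rod transducin, was 41.1, 75.5 and 85.5 in Control and 16.1, 23.2 and 46.3 in Mild IOP (FDR = 0.215). Gnat1, the rod transducin α subunit, was 165, 153 and 124 in Control and 114, 91.9 and 109 in Mild IOP (−0.48 ± 0.15, FDR = 0.261). Of the cone opsins, Opn1mw had a log2 fold-change of 0.36 ± 0.32 and Opn1sw one of −0.18 ± 0.29. Without Control replicate 1, 2 or 3, Mild IOP replicate 1 or 2 or Moderate IOP replicate 2 none of the 27 passed, without Moderate IOP replicate 1 there was 1, and without Moderate IOP replicate 3 there were 3.

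RGC markers had members on both sides of Control. All Mild IOP replicates lay below Control in 6 of the 28 and above it in 5, against 9.13% and 7.94% of all genes. None of the 28 passed the FDR, 3 were lower and 2 higher at an unadjusted p below 0.05, against 7% and 3.15% of all genes, and the median log2 fold-change was −0.11, with replicate medians of −0.04, −0.13 and 0.03. Sncg had a log2 fold-change of −0.52 ± 0.13 (FDR = 0.198). Cartpt, a neuropeptide of direction-selective RGCs, was 401, 409.8 and 414 in Control and 337, 234 and 358 in Mild IOP (−0.42 ± 0.15, FDR = 0.325), and all Mild IOP replicates lay below Control. Eomes, a transcription factor of melanopsin RGCs, was 2.57, 2.58 and 1.93 in Control and 4.65, 3.0 and 5.04 in Mild IOP (0.62 ± 0.25, FDR = 0.412), and all Mild IOP replicates lay above Control. Opn4, the melanopsin gene, was 23.9, 27.3 and 24 in Control and 20.6, 23.9 and 28.5 in Mild IOP (−0.05 ± 0.16). Thy1, the surface protein used for the isolation, was 44.3, 54.1 and 38.9 in Control and 30.4, 29.2 and 49.7 in Mild IOP (−0.35 ± 0.21, FDR = 0.64), with overlapping groups.

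No marker of the other retinal cell types passed the FDR. Amacrine cell markers had 3 of 15 higher at an unadjusted p below 0.05, against 3.15% of all genes, and a median of 0.09. These were Dab1 (0.94 ± 0.26), an adaptor of reelin signalling, Lamp5 (0.58 ± 0.18) and the glycine transporter gene Slc6a9, which was 118, 111 and 101 in Control and 149, 148 and 142 in Mild IOP (FDR = 0.31). Gad1, which makes GABA, was 532, 540.5 and 576 in Control and 568, 618 and 574 in Mild IOP (0.09 ± 0.10). Bipolar cell markers had a median of 0.18 over 15 genes and Muller glia and astrocyte markers 0.05 over 13. Of microglia and macrophage markers, C1qc of complement was 9.84, 13 and 16.5 in Control and 4.77, 8.50 and 8.43 in Mild IOP (FDR = 0.258) while C1qb was 9.74, 9.45 and 7.48 in Control and 14.8, 9.08 and 15.8 in Mild IOP (FDR = 0.495), and Cx3cr1 was 0.394, 1.44 and 1.13 in Control and 1.38, 0.594 and 1.12 in Mild IOP. Rgs5 of pericytes was 1.22, 2.06 and 0 in Control and 2.48, 4.64 and 7.85 in Mild IOP (FDR = 0.215). The haemoglobin gene Hba-a1 was 14.7, 23.7 and 32.8 in Control and 5.93, 12.1 and 18.5 in Mild IOP (FDR = 0.421). The part of these cell types in the differences above was not tested.

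**Figure D4:**
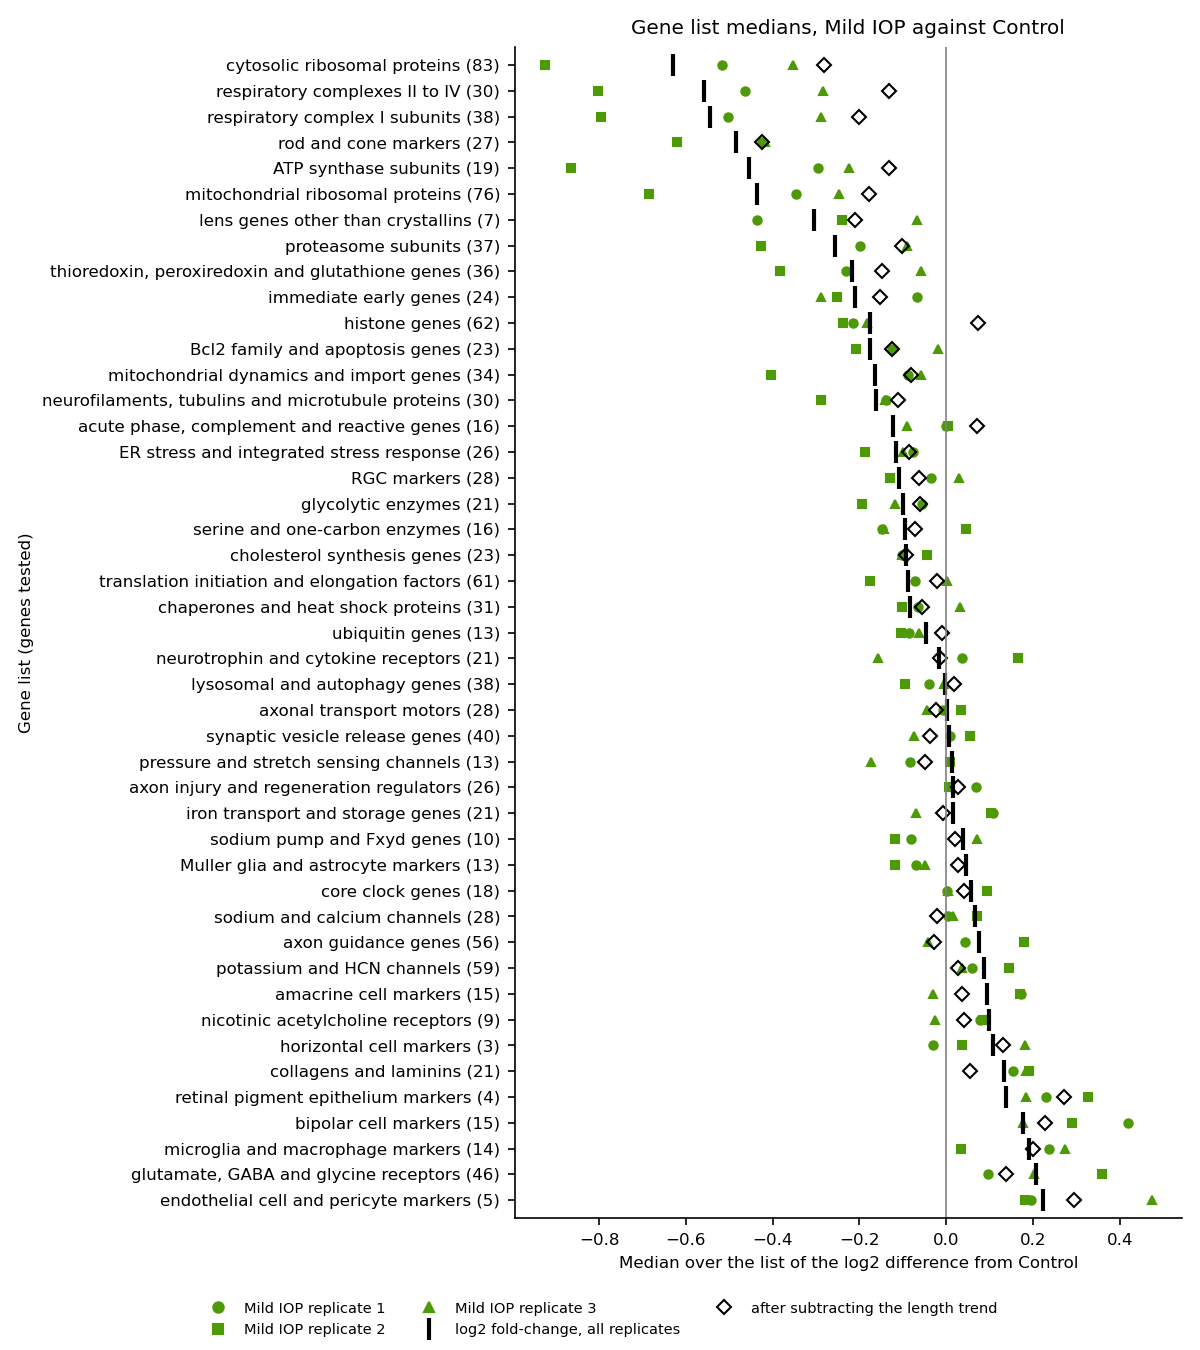
Median over each gene list of the log2 difference between Mild IOP and Control on the horizontal axis, with the list and its number of tested genes on the vertical axis, leaving out the crystallins, red blood cell, sex-linked and study lists. Green symbols are the 3 Mild IOP replicates against the Control mean, black bars the median log2 fold-change of all replicates and diamonds the same after the length trend was subtracted, and the bars of most lists lie between −0.2 and 0.2.

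Immediate early genes are transcribed within minutes of neuronal activity or stress. Of 24 tested, 2 were lower at an FDR below 0.1, against 0.391% of all genes, and 5 were lower at an unadjusted p below 0.05, against 7%, with a list median of −0.21. Egr1, a zinc finger factor of this class, was 74.9, 67.9 and 72.4 in Control and 39.8, 41.3 and 36.6 in Mild IOP, 1.81-fold lower (−0.86 ± 0.12, FDR = 0.015). The values rested on 1676, 1927 and 1119 derived fragments in Control and 861, 877 and 617 in Mild IOP. Its transcript of 4484 nt is long, the log2 fold-change after the length trend was subtracted was −0.93 (FDR = 0.00569), and it was called whichever of the 9 libraries was left out. Nr4a1 (chr15:101266846-101274794), an orphan nuclear receptor, was 28.9, 34.6 and 37 in Control and 18.7, 18.5 and 13.2 in Mild IOP (−0.96 ± 0.17, FDR = 0.0632), and was not called without any 1 of the Control replicates, Mild IOP replicate 1 or 2 or Moderate IOP replicate 2. Both genes had all Mild IOP replicates below all Control replicates. Fos, a subunit of AP-1, was 92.8, 111 and 106 in Control and 74.6, 56.9 and 68.2 in Mild IOP (−0.63 ± 0.13, FDR = 0.115) without overlap. Jund, another subunit, was 83.4, 105 and 104 in Control and 81.6, 72.8 and 86 in Mild IOP (−0.28 ± 0.17), and Junb was 26.7, 20.3 and 22.8 in Control and 21.9, 20.4 and 21.5 in Mild IOP (−0.12 ± 0.18).

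The promoter of Nr4a1 is shown because it carries 4 copies of letters close to those of the cAMP response element, a type of site through which activity induces immediate early genes. It is the 250 bases before the RefSeq start site in GRCm38.p6 (chr15:101266596-101266845, plus strand), with the letters TGCGTCA in capitals.
Nr4a1: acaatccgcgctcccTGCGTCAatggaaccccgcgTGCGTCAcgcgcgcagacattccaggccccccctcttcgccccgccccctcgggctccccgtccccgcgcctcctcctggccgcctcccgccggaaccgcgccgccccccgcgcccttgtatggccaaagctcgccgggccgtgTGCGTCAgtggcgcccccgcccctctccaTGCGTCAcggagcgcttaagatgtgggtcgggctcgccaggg
The 4 matches start 235, 215, 71 and 42 bases before the start site. TGCGTCA was found on either strand of this window in 2.0% of 27025 genes and in none of the 10 lower crystallins with a promoter row.

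Phgdh (chr3:98313171-98339969), which catalyses the entry step of serine synthesis from a glycolytic intermediate, was 44.1, 47.1 and 40.9 in Control and 24.5, 25.5 and 21.7 in Mild IOP (−0.86 ± 0.15, FDR = 0.0632), without overlap. It was not called without Control replicate 1, 2 or 3, Mild IOP replicate 1 or 2 or Moderate IOP replicate 2. It was the only one of 16 serine and one-carbon enzymes past the FDR. Psph, the last enzyme of the same route, was 24.7, 28.9 and 21.3 in Control and 15.6, 16.1 and 15.6 in Mild IOP (−0.62 ± 0.22, FDR = 0.328), also without overlap, and Psat1, which acts between them, was 33.1, 23.8 and 27.9 in Control and 26.7, 25.5 and 31.3 in Mild IOP (−0.01 ± 0.19). Of 62 tested histone genes only Hist1h2ag passed, at 15.1, 24.2 and 30.9 in Control and 8.19, 8.42 and 10.7 in Mild IOP (−1.22 ± 0.24, FDR = 0.0861). The histone list had a median of −0.18, and 0.07 after the length trend was subtracted.

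The other 18 lower DEGs were in none of the lists. Psmg4, a chaperone of proteasome assembly, was 57.3, 61.8 and 100.4 in Control and 27.4, 31.2 and 24.6 in Mild IOP (−1.33 ± 0.23, FDR = 0.0632). Nhp2 of the H/ACA ribonucleoprotein, which guides pseudouridylation, was 36.8, 46 and 46.7 in Control and 26.8, 16 and 14.4 in Mild IOP (−1.18 ± 0.22, FDR = 0.0782). Crabp1, which binds retinoic acid in the cytosol, was 179.5, 196 and 195 in Control and 111, 79.2 and 122 in Mild IOP (−0.89 ± 0.16, FDR = 0.0632). In these 3 genes the groups were apart. Fbxo6, which directs misfolded glycoproteins to degradation, was 1.92-fold lower (FDR = 0.087) and Ost4, a subunit of the enzyme that attaches N-glycans, was 1.60-fold lower (FDR = 0.0489). Resp18, a protein of secretory granules, was 1.76-fold lower (FDR = 0.066), Pttg1, known as securin, 1.68-fold (FDR = 0.0449), Ranbp1, a regulator of nuclear transport, 1.60-fold (FDR = 0.076), Ddt, a relative of the cytokine Mif, 1.81-fold (FDR = 0.0712) and the small GTPase Rab33a 1.65-fold (FDR = 0.0743). Hapln3, a hyaluronan link protein, was 3.75, 1.96 and 2.16 in Control and 0.220, 0.224 and 0 in Mild IOP, with 1.99, 1.99 and 0 derived fragments in the Mild IOP replicates (FDR = 0.0826). Stamos was 3.05, 1.52 and 4.06 in Control and listed at 0 in all Mild IOP replicates (FDR = 0.0743). The remaining genes were 1500012F01Rik, 1600002K03Rik, AI462493, D8Ertd738e, Grcc10 and Tceal5, with log2 fold-changes of −1.10, −1.96, −1.13, −0.74, −0.75 and −0.71.

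Among the 40 lower DEGs outside the crystallins, 38 were above 0 in a Mild IOP library. The lowest of the 3 Mild IOP values was that of replicate 2 in 27 of them, of replicate 3 in 9 and of replicate 1 in 2. The highest was that of replicate 3 in 24, of replicate 1 in 10 and of replicate 2 in 4.

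Ddx3y (chrY:1260715-1286613), an RNA helicase gene of the Y chromosome, was the only gene higher in Mild IOP at an FDR below 0.1. It was 2.49, 1.22 and 2.88 in Control and 8.88, 8.34 and 9.43 in Mild IOP, 3.18-fold higher (1.67 ± 0.27, FDR = 0.0489), and the groups did not overlap. After the length trend was subtracted its FDR was 0.0663, and it was not called without Control replicate 1 or 2 or Mild IOP replicate 1 or 2. Of 5 tested sex-linked genes, 4 were higher and 1 lower at an unadjusted p below 0.05, against 3.15% and 7% of all genes. The Y-linked translation factor gene Eif2s3y was 1.08, 2.38 and 7.66 in Control and 14.9, 10.2 and 12.8 in Mild IOP (1.78 ± 0.47, FDR = 0.198). The Y-linked histone demethylase genes Kdm5d and Uty had log2 fold-changes of 1.00 ± 0.32 and 1.28 ± 0.36. Xist, the RNA that silences an X chromosome in females, was 2.81, 4.12 and 7.29 in Control and 1.28, 1.42 and 2.01 in Mild IOP (−1.10 ± 0.29, FDR = 0.198). In all 5 genes the groups did not overlap, while of all genes 7.94% had Mild IOP wholly above Control and 9.13% wholly below. The sex of the pooled animals was not analysed here, and a difference in the proportion of the sexes between the pools cannot be told apart from an effect of IOP on genes that differ between the sexes.

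**Figure D5:**
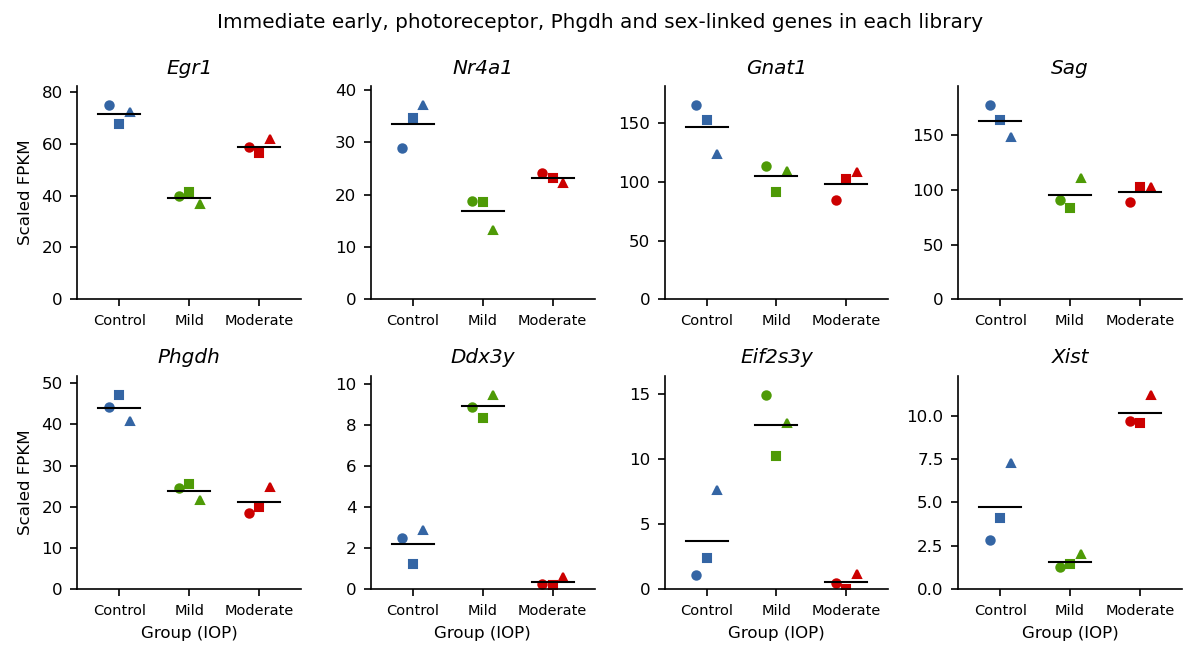
Scaled FPKM of 8 genes in the 9 libraries, with circles, squares and triangles for replicates 1, 2 and 3 and a line at the mean of each group. Egr1, Nr4a1, Gnat1, Sag, Phgdh and Xist are lower in all Mild IOP replicates than in all Control replicates, and Ddx3y and Eif2s3y are higher in all Mild IOP replicates.

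Apart from Ddx3y, the higher genes with the smallest p-values did not pass the FDR. Of 12 such genes with at least 5 scaled FPKM in Mild IOP and no overlap, Ddx3y and Eif2s3y are given above and the others had FDR values up to 0.198. Zfp207, a factor of mitotic spindle assembly, was 48.6, 42.9 and 44.9 in Control and 61.9, 64.9 and 64.6 in Mild IOP (0.48 ± 0.11, FDR = 0.163). Them4, a mitochondrial thioesterase, was 15.3, 17 and 18.1 in Control and 27, 24.5 and 30 in Mild IOP (0.66 ± 0.16, FDR = 0.166). Ptprf, a receptor phosphatase of axons and synapses, was 16.2, 16.6 and 16.6 in Control and 26.1, 26.5 and 21.5 in Mild IOP (0.55 ± 0.14, FDR = 0.198), and its Control values were close together. Ptpn2, a phosphatase that limits cytokine signalling, was 20.8, 18.2 and 20 in Control and 28.9, 33 and 35.5 in Mild IOP (0.69 ± 0.18, FDR = 0.198), and the secreted protein gene Nell1 was 17.5, 20.4 and 16.3 in Control and 25.8, 27.8 and 30.5 in Mild IOP (0.61 ± 0.16, FDR = 0.198). Rlbp1, the retinal-binding protein of Muller glia and pigment epithelium, was 4.38, 4.64 and 4.37 in Control and 15.4, 7.61 and 14.2 in Mild IOP (1.24 ± 0.31, FDR = 0.198). Among noncoding RNAs, Ipw of an imprinted cluster was 25, 24.6 and 32.8 in Control and 44.7, 53.7 and 66.6 in Mild IOP (0.97 ± 0.24, FDR = 0.198). Mkln1os, on the strand opposite to Mkln1, was 1.25, 3.46 and 0.259 in Control and 9.14, 6.04 and 7.13 in Mild IOP (1.84 ± 0.39, FDR = 0.112), and the library kit does not mark strand. Rpph1, the RNA of RNase P, was 12.2, 3.56 and 9.58 in Control and 21.7, 17.4 and 23.1 in Mild IOP from 14, 11.9 and 11 derived fragments (1.33 ± 0.32, FDR = 0.183). E130311K13Rik had a log2 fold-change of 1.13 ± 0.28 (FDR = 0.196).

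Receptors for the transmitters of the inner retina had more members above than below Control. Of 46 tested glutamate, GABA and glycine receptor genes, 0 passed the FDR, 5 were higher and 0 lower at an unadjusted p below 0.05, against 3.15% and 7% of all genes, and the median was 0.21, or 0.14 after the length trend was subtracted. Their median transcript length was 4833 nt. Gabrr2, a subunit of the GABA-C receptor, was 5.87, 6.96 and 3.71 in Control and 9.52, 12.1 and 14.8 in Mild IOP (1.03 ± 0.30, FDR = 0.234), and the AMPA receptor subunit gene Gria4 was 56.4, 52.7 and 58.5 in Control and 73.5, 83.4 and 65.4 in Mild IOP (0.40 ± 0.13, FDR = 0.292). The groups did not overlap in either gene. Potassium and HCN channels had 6 of 59 higher at an unadjusted p below 0.05, against 3.15% of all genes, and a median of 0.09. Sodium and calcium channels and nicotinic receptors had medians of 0.07 and 0.10.

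No gene of the injury and stress lists passed the FDR. Of 26 axon injury and regeneration regulators 0 passed the FDR and 2 were lower at an unadjusted p below 0.05, near the 7% of all genes, with a median of 0.01. Gap43 of the growth cone was 155, 159 and 145 in Control and 156, 115 and 157 in Mild IOP (−0.11 ± 0.13) and Jun was 17.1, 15.9 and 24.3 in Control and 20.4, 31.2 and 24.3 in Mild IOP (0.39 ± 0.20). Rgs2, a regulator of G protein signalling, was 31.8, 37.6 and 44.9 in Control and 19.8, 21.1 and 27.2 in Mild IOP (−0.72 ± 0.17, FDR = 0.158). Bcl2 family and apoptosis genes had 2 of 23 lower, also near the 7% of all genes, and the pore-forming Bax stood at 81.1, 75.5 and 67.1 in Control and 56.8, 47.6 and 47.1 in Mild IOP (−0.55 ± 0.16, FDR = 0.241). Endoplasmic reticulum and integrated stress genes had 6 of 26 lower, against 7% of all genes, with Atf4 at 243, 249.8 and 199 in Control and 181, 138 and 198 in Mild IOP (−0.43 ± 0.15, FDR = 0.311) and Sesn2 at −0.44 ± 0.13 (FDR = 0.236). Acute phase, complement and reactive genes had a median of −0.12 over 16 genes, with Cp, the ferroxidase ceruloplasmin, at 0.380, 0.681 and 0.645 in Control and 0.940, 3.77 and 2.43 in Mild IOP (FDR = 0.272) and Gfap of reactive glia at 0, 0.339 and 2.06 in Control and 0, 0.635 and 0.414 in Mild IOP. Channels that sense pressure and stretch had 1 of 13 lower and 1 higher, and neurotrophin and cytokine receptors had none of 21 in either direction.

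Genes that the study lists for Mild IOP were chosen on these samples, so their direction in these libraries is not independent evidence. For selected genes the study also reported similar qPCR trends in additional animals, and those measurements were not examined here. Of 18 tested genes listed as higher, 0 passed the FDR here and 15 were higher at an unadjusted p below 0.05, against 3.15% of all genes. Their median log2 fold-change was 0.75. Among them Tigd2 was 4.84, 6.56 and 6.69 in Control and 10.1, 9.12 and 9.87 in Mild IOP (0.62 ± 0.18, FDR = 0.243) and Gnpda2, a hexosamine enzyme, was 18.1, 23.4 and 27.7 in Control and 26.8, 59.9 and 35.7 in Mild IOP (0.74 ± 0.26, FDR = 0.33). Of 17 listed as lower, 6 passed the FDR and 14 were lower at an unadjusted p below 0.05, against 0.391% and 7% of all genes.

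Moderate IOP was set beside Mild IOP for the genes above. The 2 comparisons share the Control libraries, so the test of the difference is the direct one between the IOP groups, in which 917 of 13043 genes were higher in Moderate IOP at an FDR below 0.1 (7.03%) and 407 were lower (3.12%). Of the 51 genes lower in Mild IOP, 33 were higher in Moderate IOP than in Mild IOP by that test and 1, Crybb1, was lower. The 51 genes were chosen for low values in the same Mild IOP libraries that this test uses. Low values there by technical spread also raise the direct difference, so the counts among these genes are not independent evidence. All of the 7 respiratory chain and ATP synthase genes and 8 cytosolic ribosomal protein genes named above were among the 33. Ndufa2 was 450.1, 467 and 466 in Moderate IOP, 0.97 ± 0.15 above Mild IOP on the log2 scale (FDR = 0.00744), and Rpl32 was 325, 357 and 362 (1.22 ± 0.15, FDR = 0.00395). Over the lists, 31 of 38 genes of complex I and 71 of 83 cytosolic ribosomal protein genes were higher in Moderate IOP by the direct test, and the median log2 fold-change of Moderate IOP against Control was 0.23 and 0.27. Against Control, 1 of the 38 and 0 of the 83 were higher in Moderate IOP at an FDR below 0.1. Of the 51 genes lower in Mild IOP, 0 were higher and 15 were lower in Moderate IOP than in Control at that FDR. The 51 genes were also chosen for high values in the same Control libraries. High values there by technical spread lower the difference of Moderate IOP from Control, so these counts are not independent evidence either. In the shortest length group the medians of Mild IOP lay below Control and those of Moderate IOP above it, and the number of DEGs between Moderate and Mild IOP was 1324 as tested and 489 after the length trend was subtracted.

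In the direct test the crystallins went either way and Sag and Phgdh did not pass. Crygs, Cryba1, Crygb and Lim2 were listed at 0 in all 3 Moderate IOP replicates as well, and Cryaa was listed at 0 there. Cryab was 17.2, 6.79 and 17.1 in Moderate IOP, 1.38 ± 0.31 above Mild IOP (FDR = 0.0291), and Crybb3 was 11.3, 8.85 and 9.42 (0.76 ± 0.23, FDR = 0.0824). Sag was 89.1, 103 and 102 in Moderate IOP, with a direct difference of 0.05 ± 0.14 on the log2 scale (FDR = 0.864). Phgdh was 18.5, 20 and 24.7, −0.18 ± 0.15 from Mild IOP (FDR = 0.528). Egr1 was 58.6, 56.5 and 61.8 in Moderate IOP, between the other groups, and 0.58 ± 0.12 above Mild IOP (FDR = 0.0186), while the direct difference of Nr4a1 was 0.46 ± 0.17 (FDR = 0.148). Of the 28 RGC markers, 13 were higher in Moderate IOP than in Mild IOP by the direct test, against 7.03% of all genes. Among the 13 were Sncg at 1424, 1357 and 1385 and Cartpt at 920.3, 887 and 846. Of 46 glutamate, GABA and glycine receptor genes, 12 were lower in Moderate IOP by the direct test, against 3.12% of all genes. Ddx3y was 0.254, 0.191 and 0.603 in Moderate IOP, −2.88 ± 0.27 from Mild IOP (FDR = 0.00157), and Xist was 9.69, 9.56 and 11.2 there.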

How the data were processed

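RGCs of Control, Mild IOP and Moderate IOP eyes were measured by RNA sequencing, with 3 technical replicates of 1 pool per group, from oligo-dT primed cDNA (SMART-seq v4) and Nextera XT libraries read as 100 nt pairs on an Illumina HiSeq. The authors aligned reads to mm10 and deposited FPKM per gene locus with confidence intervals from Cufflinks. The labels list FastQC, Trimmomatic, TopHat2, Cufflinks and Cuffdiff while the methods name bowtie2, so the aligner is uncertain. Grouping followed the sample titles.

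FPKM were summed per gene symbol and divided by median-of-ratios factors. Genes with a mean of at least 0.5 were tested on log2(FPKM + 1) by limma 3.58.1 in R 4.3.3 with a variance trend over 9 libraries, because FPKM are not counts. Genes with a failed estimate in a library were left out, and some items are not reported here. numpy 2.4.6 and pandas 2.3.3 (Python 3.11.15) prepared the tables, and matplotlib 3.10.9 drew the plots. The procedure was also run on simulated data in which the spread was independent between genes. Those data held no trend with length and no deviation shared across a library, so they cannot speak to either. Depth and fragments per gene were derived from the deposited confidence intervals, using genes of at least 2000 nt and 100 fragments. They cover counting error only. Transcript lengths were those of GENCODE M21, and promoters came from RefSeq.

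Named genes were all those past the FDR, the 12 higher genes with the smallest p, at least 5 FPKM in Mild IOP and no overlap, and in each list the 2 members with the highest Control mean and the 2 with the smallest p. Further members were named for their known roles after their values had been seen. The comparison, the gene lists and the rules were chosen with earlier results of these data known. Alternatives were other scaling, pseudocounts and filters, fewer libraries, a replicate block, no variance trend and subtraction of a loess curve on transcript length in each library.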

Additional observations from a re-analysis of the deposited data

How the results depend on the processing

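The number of lower DEGs, 51, was 21 without a filter on low values, 84 with a filter at 5 FPKM, 22 with the Control and Mild IOP libraries only, 13 without a variance trend and 18 after the length trend was subtracted, and the number with a fold-change of at least 1.5, 50, was 20, 79, 22, 13 and 18. Leaving out 1 library gave 15 to 173 lower DEGs with or without the fold criterion. The single higher DEG became 0 with a pseudocount of 0.1, 3 without a filter, 2 without a variance trend, 2 after the length trend was subtracted, and 0 to 4 when a library was left out, with and without the fold criterion. DEGs between Moderate and Mild IOP, 1324, numbered 839 without a variance trend, 489 after the length trend was subtracted, and 518 to 1398 when a library was left out, with 742 without Mild IOP replicate 1, 518 without Mild IOP replicate 2 and 780 without Moderate IOP replicate 2. The median of complex I was −0.20 and that of cytosolic ribosomal proteins −0.28 after the length trend was subtracted, and −0.67 to −0.41 and −0.77 to −0.46 when a library was left out. The cause of these shifts was not tested. No direction reversed among the named DEGs, the 12 higher genes and the counts, over the alternatives run. Without scaling, 36 of the 52 DEGs passed and the median of all genes was 0.05.

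Replicate numbers are shared between groups, but the replicates are splits of a pool, and deviations of same-numbered Control and Mild IOP replicates correlated at 0.02, −0.0031 and 0.03. With the replicate number as a block, 23 genes were lower and 2 higher, and 23 and 2 with the fold criterion. The derived depth of 4660000 to 8230000 fragments limits genes with few fragments, among them Hapln3, Stamos and Lim2. At 3 against 3 libraries an exact permutation test of a single gene cannot give a p below 0.1, and p-values come from the spread shared across genes.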

Other observations

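Genes of thiol redox control had 12 of 36 lower at an unadjusted p below 0.05, against 7% of all genes, none higher and none past the FDR, with a median log2 fold-change of −0.22 in Mild IOP. Gpx1, a peroxidase that uses glutathione, was 121, 93.7 and 107 scaled FPKM in Control and 83.2, 59.6 and 71.1 in Mild IOP (−0.59 ± 0.15, limma FDR = 0.195). Mitochondrial dynamics and import genes had 10 of 34 lower and 1 higher, against 7% and 3.15% of all genes, with a median of −0.16. Fis1, an adaptor of mitochondrial fission, was 365, 438 and 338 in Control and 280.3, 213 and 291 in Mild IOP (−0.55 ± 0.14, FDR = 0.198). Neurofilaments, tubulins and microtubule proteins had 7 of 30 lower, against the same 7%, with a median of −0.16. Tbca, a tubulin folding factor, was 189, 282 and 249 in Control and 155, 103 and 151 in Mild IOP (−0.81 ± 0.19, FDR = 0.16). After the length trend was subtracted the 3 medians were −0.15, −0.08 and −0.11.

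Iron genes went both ways, with 3 of 21 lower and 3 higher at an unadjusted p below 0.05, against 7% and 3.15% of all genes, and none past the FDR. Fth1, the ferritin heavy chain, was 949.9, 1035 and 812 in Control and 661, 571 and 782 in Mild IOP (−0.48 ± 0.14, FDR = 0.23), and Trf, the iron carrier transferrin, was 5.08, 3.55 and 1.22 in Control and 8.11, 7.35 and 5.34 in Mild IOP (0.99 ± 0.35, FDR = 0.328). Lists of larger neuronal systems lay near 0, with medians of 0.01 for 40 synaptic vesicle release genes, 0.00197 for 28 axonal transport motors, 0.08 for 56 axon guidance genes, −0.00273 for 38 lysosomal and autophagy genes, −0.10 for 21 glycolytic enzymes and −0.08 for 31 chaperones. No member of these 6 lists passed the FDR.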
